A study of Mus musculus with 18 samples.

Results

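A set of 10 genes of the canonical Wnt pathway was followed in mouse ESCs and EpiLCs, namely the effectors Ctnnb1, Tcf7, Tcf7l1, Tcf7l2 and Lef1, the feedback targets Axin2 and Nkd1, and the transcription factor targets Cdx1, Sp5 and T. They were chosen by name, as the rows of these genes in the table of adjusted counts of each cell type. The ESC table held all 10 of them among 13104 genes, and the EpiLC table held 7 of them among 13717 genes. Cdx1, Sp5 and T had no row in the EpiLC table and were not analysed in EpiLCs.

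RNA was sequenced from 12 libraries, with 3 biological replicates in each of 4 groups: vehicle ESCs, ESCs with Δ9-THC, vehicle EpiLCs, and EpiLCs with Δ9-THC. All cells were BVSC mouse ESCs, which carry the Blimp1::mVenus and Stella::ECFP reporters, or EpiLCs made from them. The study kept a female clone (H18) and a male clone (R8) of this line. In its account of ESC proliferation, the paper gives female ESCs as the source of its data and names male cells in supplementary figures. The labels do not name the clone of each library. Exposed cultures received Δ9-THC, the main psychoactive compound of cannabis, at 100 nM, and vehicle cultures, labelled as mock-treated, received the ethanol it was dissolved in. The study describes the exposure as continuous over both stages, so exposed EpiLCs came from exposed ESCs, and the EpiLC comparison covers exposure in both. ESCs were kept in 2i+LIF, which contains CHIR99021, an inhibitor of GSK3, and PD0325901, an inhibitor of MEK, with exposed and vehicle ESCs alike in this medium. The EpiLC medium contained activin A, bFGF and serum replacement and, as described, no GSK3 inhibitor, so the cell types differed in medium as well as in state.

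In the absence of a Wnt ligand, β-catenin is bound by a complex of Axin, APC, CK1 and GSK3, phosphorylated and degraded. When a Wnt protein binds a Frizzled receptor and LRP5 or LRP6, or when GSK3 is inhibited, β-catenin accumulates, enters the nucleus and binds the TCF/LEF factors at their target genes. In mouse ESCs, GSK3 inhibition is known to sustain self-renewal in large part by relieving the repression of pluripotency genes by TCF7L1. The activated pathway also raises the transcription of its own inhibitors, such as Axin2, Nkd1, Notum and Znrf3, which is why Axin2 is widely used as a readout of the pathway. In the embryo the same pathway, acting on the epiblast, induces T and the other genes of the primitive streak.

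TCF/LEF factors recognise a short core sequence, searched here as the letters CTTTGAT or CTTTGAA on both strands of the 250 bases before each start site. Promoter windows of RefSeq on GRCm38.p6 were matched by symbol for 9 of the 10 genes, with 15 windows in all since some genes have several start sites. The motif was found in 2 of these windows, one of Sp5 and one of T, against 7.48% of the 32851 windows of RefSeq and 5.26% of the 13601 windows of genes in either table. Both genes belong to the 3 with a row for ESCs only, and the other of these, Cdx1, was the gene without a window and was not searched. The windows below are shown in gene orientation with the motif in capitals, for these 2 genes and for Axin2 and Lef1. Among the genes of the set with a row for both cell types, Axin2 and Lef1 differed most in level between ESCs and EpiLCs. In Sp5, a transcription factor of the SP family, the motif begins 104 bases before the start and reads CTTTGAT (chr2:70474673-70474922, plus strand). In T, the T-box factor brachyury, it begins 235 bases before the start as TTCAAAG, the reverse complement of CTTTGAA (chr17:8434173-8434422, plus strand). The windows of Axin2 (chr11:108920099-108920348, plus strand) and of the first start site of Lef1 (chr3:131110047-131110296, plus strand) hold neither letter string. A match of letters is no evidence of binding, and its absence says only that these letters are not in the window.
Sp5: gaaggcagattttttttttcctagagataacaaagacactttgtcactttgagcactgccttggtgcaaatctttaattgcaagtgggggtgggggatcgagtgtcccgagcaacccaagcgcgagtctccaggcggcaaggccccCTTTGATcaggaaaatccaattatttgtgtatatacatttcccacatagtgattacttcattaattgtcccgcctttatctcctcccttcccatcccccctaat
T: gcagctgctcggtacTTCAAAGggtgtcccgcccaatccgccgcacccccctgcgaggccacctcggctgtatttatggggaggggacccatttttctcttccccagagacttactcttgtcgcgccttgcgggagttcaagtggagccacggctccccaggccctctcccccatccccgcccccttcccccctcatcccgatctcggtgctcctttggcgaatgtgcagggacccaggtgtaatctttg
Axin2: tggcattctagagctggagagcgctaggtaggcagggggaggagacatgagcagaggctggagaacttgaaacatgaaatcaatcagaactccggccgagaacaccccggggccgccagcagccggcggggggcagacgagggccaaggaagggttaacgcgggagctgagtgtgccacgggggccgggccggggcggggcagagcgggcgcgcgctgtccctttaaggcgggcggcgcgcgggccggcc
Lef1: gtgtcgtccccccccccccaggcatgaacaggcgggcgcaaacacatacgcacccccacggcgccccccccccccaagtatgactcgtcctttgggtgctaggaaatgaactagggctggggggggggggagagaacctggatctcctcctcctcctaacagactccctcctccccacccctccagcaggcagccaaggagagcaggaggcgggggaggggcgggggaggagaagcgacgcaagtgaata

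Levels are given as CPM, the adjusted counts of a gene scaled to the size of its library by the TMM method, and are compared between genes as CPM per kilobase of annotated exon, all isoforms merged. The totals of adjusted counts were 23427551 to 32096698 per library, and the counts of the 10 genes ranged from 38 in a library (Nkd1 in ESCs) to 14924 (Ctnnb1 in ESCs). The cells matched their labels, since 12 of 12 naive pluripotency markers were lower in vehicle EpiLCs than in vehicle ESCs and 7 of 7 formative and primed markers with a row in both tables were higher. For 4 lists of markers of other cells, of primitive endoderm, trophectoderm, feeder fibroblasts and totipotent-like cells, 6 of 27 markers had a row in ESCs and 10 in EpiLCs, and the summed level of a list was 0.693 to 6.92 CPM in vehicle ESCs, 1.22 to 7.39 in exposed ESCs, 4.88 to 19.4 in vehicle EpiLCs and 3.91 to 18.1 in exposed EpiLCs. Primitive streak markers other than T (3 of 10 in each table) summed to 12.9 to 18.4 CPM in vehicle and 15.7 to 21.9 in exposed ESCs, and to 5.97 to 7.57 and 6.90 to 8.74 in EpiLCs. Neuroectoderm markers were higher, at 41.5 to 47.1 CPM in vehicle and 35.7 to 40.8 in exposed ESCs (2 of 6 with a row), and at 77.7 to 97.1 and 78.1 to 99.4 in EpiLCs (4 of 6). Most of this was Nes, which encodes the filament protein nestin, at 40.1 CPM in vehicle ESCs and 68.6 in vehicle EpiLCs. Nes was lower in all exposed ESC libraries than in the vehicle ones (log2 fold change -0.22, edgeR, adjusted p = 0.0589), and its part in the results was not tested. The markers without a row, such as Mesp1, Sox17, Cdx2 and Col3a1, were not analysed. Exposure was tested within each cell type with edgeR's quasi-likelihood test and Benjamini-Hochberg adjustment over all genes of the table. The tables of ESCs and EpiLCs were adjusted separately for batch effects, so levels were set side by side between the cell types without a test.

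The largest differences were those between the cell types, and they concerned 3 of the 7 genes with a row in both tables. Between vehicle ESCs and vehicle EpiLCs, Axin2 was 8.16-fold lower in EpiLCs, while Lef1 was 10.2-fold and Nkd1 4.45-fold higher. In bulk RNA, fewer cells with a transcript and less of it per cell cannot be told apart. The other effectors, Ctnnb1, Tcf7, Tcf7l1 and Tcf7l2, stayed within 1.41-fold. In the cultures with Δ9-THC, each of the 7 genes had the same direction between cell types as in the vehicle cultures, whichever scaling was used. None of the 10 genes passed the test of exposure in either cell type.

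**Figure D1:**
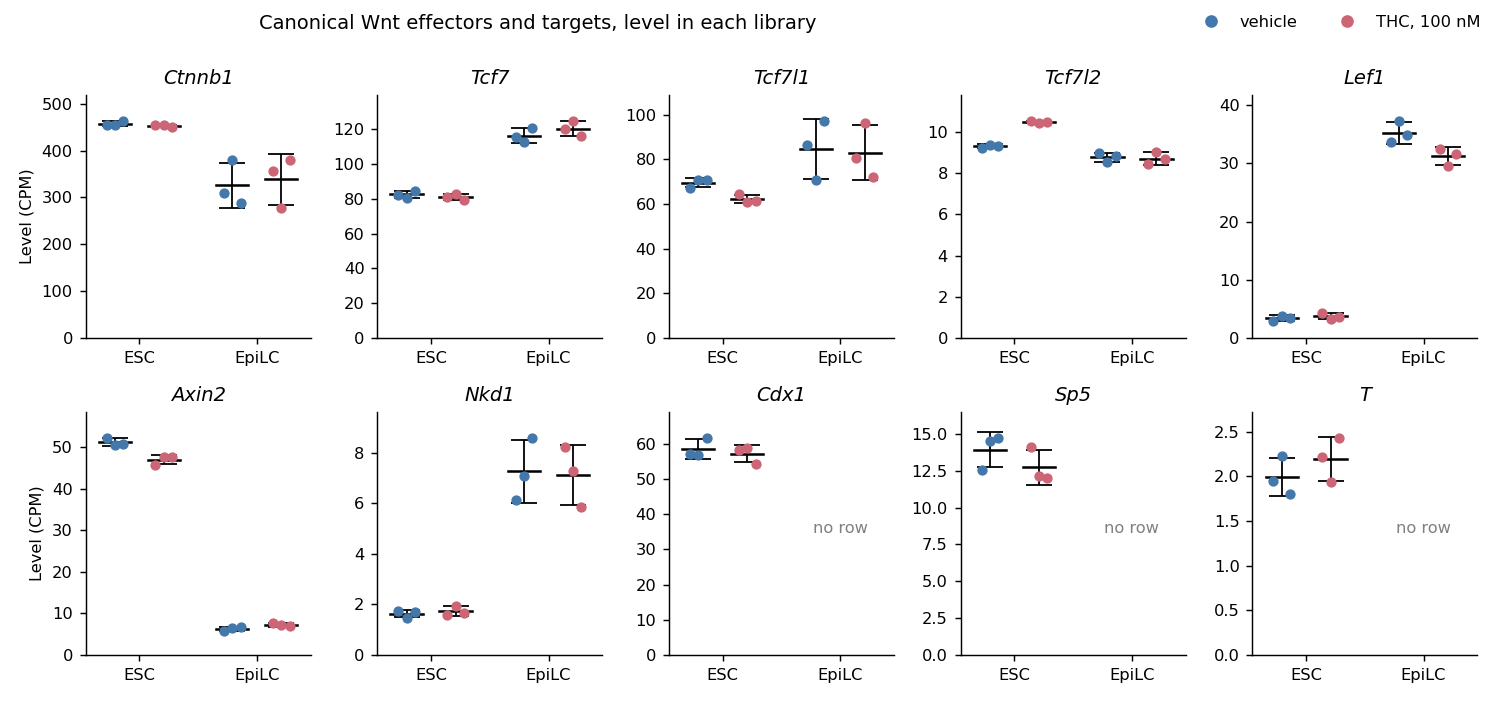
Level of each gene in every library, in CPM on a linear axis from 0, for ESCs and EpiLCs with vehicle (blue) or 100 nM Δ9-THC (red). Points are libraries and bars the mean ± SD of 3. Axin2 lies at 45.7 to 52.2 CPM in ESCs and at 5.80 to 7.72 in EpiLCs, Lef1 the other way round, and "no row" marks genes without EpiLC values.

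Ctnnb1 encodes β-catenin, the transcriptional co-activator that the pathway controls mainly at the level of its protein (ENSMUSG00000006932, GRCm38 chromosome 9 from 120929216 to 120960507). It was the most abundant of the 10 genes in both cell types, at 88.1 ± 0.863 CPM per kilobase (SD, n = 3) in vehicle ESCs and 62.8 ± 9.24 in vehicle EpiLCs, above 96.4% and 94.5% of genes. The vehicle ESC libraries had 454.4, 455.4 and 462.6 CPM and those with Δ9-THC 453.7, 454.1 and 449.1, all of them just below the lowest vehicle library. In EpiLCs the values were 310.1, 380.2 and 288 CPM with the vehicle and 357, 277 and 380.7 with Δ9-THC. The spread among EpiLC libraries of a group was thus wide, and the groups overlapped there. Of the exonic bases of Ctnnb1, 15.1% are shared with Ulk4 and Mir7090, and counts without strand cannot tell these genes apart there. With Δ9-THC the log2 fold change was -0.016 for ESCs (SE 0.023, edgeR, adjusted p = 0.687) and 0.052 in EpiLCs (SE 0.15, edgeR, adjusted p = 0.900).

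Tcf7, which encodes TCF1, was the most abundant TCF/LEF gene in both cell types (ENSMUSG00000000782, chromosome 11 from 52252371 to 52283014). Its levels were 82.1, 80.5 and 84.7 CPM in vehicle ESCs and 81.1, 82.9 and 79.2 in ESCs with Δ9-THC. In EpiLCs it had 115, 113 and 121 CPM with the vehicle and 120.2, 124 and 116 with Δ9-THC. Every EpiLC library thus lay above every ESC library, with a ratio of 1.41-fold in the vehicle cultures and 1.48-fold in the exposed ones, while the exposure groups overlapped in both cell types. The log2 fold change with exposure was -0.023 in ESCs (SE 0.033, edgeR, adjusted p = 0.693) and 0.049 in EpiLCs (SE 0.059, edgeR, adjusted p = 0.737).

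Tcf7l1 encodes TCF3 in the older naming, the member of the family that mainly acts as a repressor in ESCs (ENSMUSG00000055799, chromosome 6 from 72626378 to 72789254). It had 67.1, 70.8 and 70.7 CPM in vehicle ESCs and 64.3, 61.1 and 61.4 with Δ9-THC. All exposed ESC libraries thus lay below all vehicle libraries, by a log2 fold change of -0.16 (SE 0.037, edgeR, adjusted p = 0.0546), which did not pass the threshold of 0.05. This was the smallest adjusted p among the 10 genes. In EpiLCs it had 86.3, 70.6 and 97.1 CPM with the vehicle and 80.5, 96.4 and 71.9 with Δ9-THC, with the groups overlapping (log2 fold change -0.029, SE 0.15, edgeR, adjusted p = 0.948). Its longest annotated transcript has a GC content of 59.3%, against a median of 49.7% over the genes of the ESC table. Over 13083 genes of ESCs the effect of exposure was lower the higher this GC content (Spearman's rho of -0.536, a description, since genes are not replicates). With offsets per library that took out a spline of GC content and length, the value for Tcf7l1 in ESCs was -0.018 (edgeR, adjusted p = 0.860).

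The 6 genes in the list of pluripotency genes that Tcf7l1 is known to repress, Esrrb, Nanog, Klf2, Tfcp2l1, Nr5a2 and Tcl1, all had rows in both tables. All 6 were lower in vehicle EpiLCs, with a median log2 ratio of -4.72. They are also among the 12 naive pluripotency markers, all 12 of them lower in EpiLCs with a median of -4.73, so the difference is not particular to this list. The lowest ratio was that of Tfcp2l1, a naive pluripotency factor, with 1279 ± 9.48 CPM in ESCs and 19.9 ± 2.30 in EpiLCs (log2 ratio -6.01). Nanog, the homeodomain factor of the naive network, was the most abundant per length, with 1015 ± 62.9 and 187 ± 6.75 CPM (log2 ratio -2.44). With Δ9-THC, 0 of the 6 passed in either cell type, against 6.91% of all genes in ESCs and 0% in EpiLCs (edgeR). In ESCs, 4 of the 6 had p under 0.05 before adjustment, against 28.7% of all genes, and 4 had groups that did not overlap, against 32.6%, with 1 of these higher and 3 lower. In EpiLCs, 0 of the 6 had p under 0.05, against 15.1%, and 2 had groups apart, against 21.8%. Their log2 fold changes ran from -0.21 to 0.11 in ESCs, 3 of them above 0, and from -0.060 to 0.28 in EpiLCs, 5 of them above 0.

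Tcf7l2, which encodes TCF4 of the TCF/LEF family, had low levels (ENSMUSG00000024985, chromosome 19 from 55741820 to 55933654). In ESCs the SD was 0.81% of the mean with the vehicle and 0.53% with Δ9-THC, on 250 to 311 adjusted counts per library. This spread, and the SE resting on it, describe adjusted counts and not the variation of the cultures. The vehicle ESC libraries had 9.23, 9.38 and 9.32 CPM and the exposed ones 10.5, 10.4 and 10.5. The exposed libraries lay above all vehicle libraries, with a log2 fold change of 0.17 (SE 0.046, edgeR, adjusted p = 0.100). In EpiLCs it had 8.96, 8.52 and 8.81 CPM with the vehicle and 8.42, 9.01 and 8.67 with Δ9-THC, and the groups overlapped (log2 fold change -0.010, SE 0.074, edgeR, adjusted p = 0.966). Its level in EpiLCs was 0.941 times that in ESCs with the vehicle and 0.831 times with Δ9-THC, with no overlap between the libraries of the cell types. The GC content of its longest transcript is 47.3%, and with the GC and length offsets the ESC value was 0.14 (edgeR, adjusted p = 0.268).

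Lef1 encodes the TCF/LEF factor that is itself a target of the pathway in many tissues (ENSMUSG00000027985, chromosome 3 from 131110471 to 131224356). It was low in ESCs, at 2.95, 3.87 and 3.53 CPM with the vehicle and 4.31, 3.28 and 3.65 with Δ9-THC. In EpiLCs it had 33.6, 37.2 and 34.7 CPM with the vehicle and 32.5, 29.4 and 31.6 with Δ9-THC. Every EpiLC library was above every ESC library, and the ratio in vehicle cultures was higher than that of 99.4% of the 12410 genes with a row in both tables. Per length it had 0.393 ± 0.0526 CPM per kilobase in vehicle ESCs and 4.005 ± 0.209 in vehicle EpiLCs (SD, n = 3). The exposed EpiLC libraries lay below all vehicle ones, by a log2 fold change of -0.17 (SE 0.070, edgeR, unadjusted p = 0.0429, adjusted p = 0.317), while in ESCs the groups overlapped (0.12, SE 0.14, edgeR, adjusted p = 0.628). Of its exonic bases, 13.7% are shared with Gm43352, an overlapping annotated gene.

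As shares of the summed TCF/LEF level per length, Tcf7 took 62.1% ± 0.915 (SD, n = 3) of the 4 factors in vehicle ESCs and 62.6% ± 2.12 in vehicle EpiLCs. The share of Tcf7l1 was 35.0% ± 0.801 and 30.3% ± 2.81. Lef1 took 0.776% ± 0.100 and 5.68% ± 0.634, and Tcf7l2 2.10% ± 0.0394 and 1.41% ± 0.0757. The family was thus made up mostly of Tcf7 and Tcf7l1 transcripts in both cell types, while Lef1 stood below Tcf7l2 in ESCs and above it in EpiLCs. With Δ9-THC the share of Tcf7l1 in ESCs was 32.8% ± 0.770. Its range of 31.9% to 33.5% lay below the 34.4% to 35.9% of the vehicle libraries. The share of Tcf7 lay above that of the vehicle libraries (63.1% to 64.8% against 61.1% to 62.8%). So did that of Tcf7l2 (2.43% to 2.52% against 2.05% to 2.13%), while Lef1 overlapped. Shares of 1 sum are not independent of each other. They were computed without the GC and length offsets, with which the log2 fold change of Tcf7l1 in ESCs was -0.018. In EpiLCs with Δ9-THC the share of Lef1 was 4.99% ± 0.528 and overlapped the vehicle libraries.

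Axin2 encodes the scaffold of the destruction complex that limits the pathway once it is active (ENSMUSG00000000142, chromosome 11 from 108920349 to 108950783). The vehicle ESC libraries had 52.2, 50.4 and 50.7 CPM and those with Δ9-THC 45.7, 47.6 and 47.5. In EpiLCs the levels were 5.80, 6.38 and 6.59 CPM with the vehicle and 7.72, 7.12 and 6.88 with Δ9-THC. The exposed libraries lay below all vehicle libraries in ESCs and above all of them in EpiLCs, and every EpiLC library lay far below every ESC library. In vehicle cultures the log2 ratio of EpiLCs to ESCs was -3.03 ± 0.099 (SD from the 3 libraries of each cell type), lower than in all but 0.991% of genes, and in exposed cultures it was -2.70 ± 0.091, a 6.49-fold difference. Gm11670 shares 3.80% of its exonic bases.

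With Δ9-THC, the log2 fold change of Axin2 came to -0.12 for ESCs (SE 0.034, edgeR, adjusted p = 0.0737) and 0.21 for EpiLCs (SE 0.094, edgeR, adjusted p = 0.352). The difference between these, tested as an interaction over the 12 libraries, was 0.35 on the log2 scale (SE 0.093, edgeR, unadjusted p = 0.00275, adjusted p = 0.137). It did not pass after adjustment over 12410 genes, of which 0.0322% passed and 13.7% had p under 0.05 before adjustment. The longest transcript of Axin2 has a GC content of 54.6%. With the GC and length offsets, its ESC value was -0.044 (edgeR, adjusted p = 0.454) and its EpiLC value 0.22 (edgeR, adjusted p = 0.356). The difference was then 0.27 (edgeR, adjusted p = 0.206). The summed level of the 12 naive pluripotency markers overlapped between the groups in both cell types, at 346 to 381 CPM per vehicle library and 372 to 411 per exposed library in EpiLCs, and at 4920 to 5280 and 4825 to 5170 in ESCs. With edgeR, 0 of the 12 passed in EpiLCs (2 with p under 0.05 before adjustment). The groups were apart there for 4 of them, all higher, against 21.8% of all genes. Of the 12 log2 fold changes in EpiLCs, 10 lay above and 2 below 0 (median 0.14 against 0.0030 over all genes). In ESCs 3 lay above and 9 below 0 (median -0.060 against 0.0041), and 0 passed with edgeR. The ESC groups were apart for 4 of the 12, 1 higher and 3 lower, against 32.6% of all genes. Their part in the value of Axin2 was not tested.

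**Figure D2:**
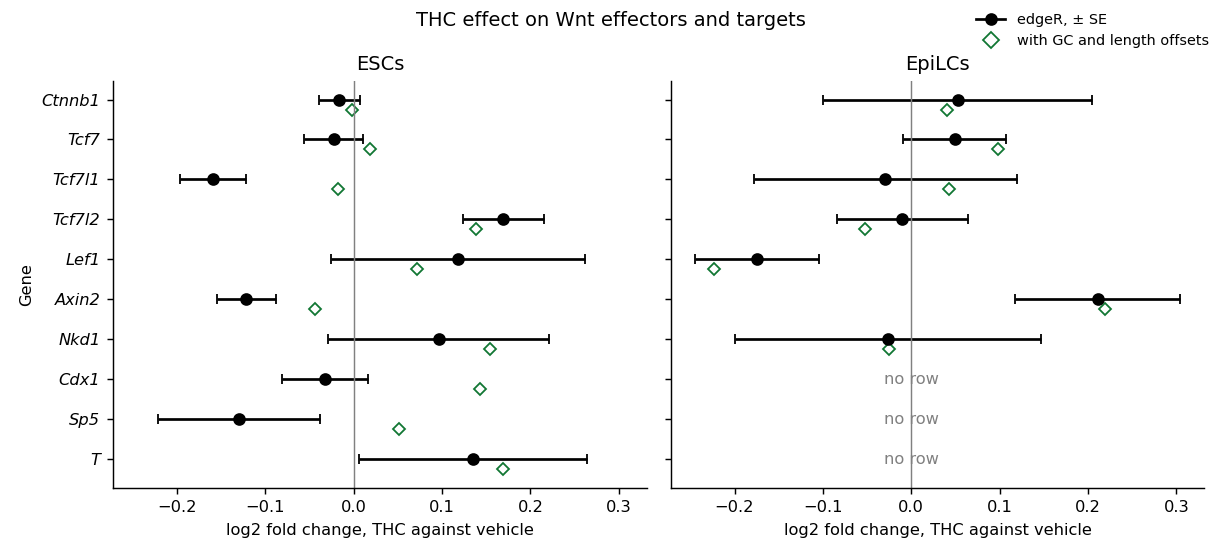
Log2 fold change of each gene with Δ9-THC against vehicle in ESCs (left) and EpiLCs (right). Black points are the edgeR estimates ± SE from 3 against 3 libraries, and green diamonds the estimates with GC and length offsets. Tcf7l1 and Axin2 in ESCs move from -0.16 and -0.12 to -0.018 and -0.044 with the offsets, and Axin2 in EpiLCs stays at 0.21 to 0.22.

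The 5 genes whose levels followed Axin2 most closely were Bahcc1, Ulk1, Plekha7, Rims2 and Stk10. Likeness was the Pearson correlation over the 12 libraries of log2 CPM minus the mean of each cell type, among 9534 genes, and it was 0.956 to 0.985 for these genes. The points share libraries, depth and the batch adjustment of each table, so the correlations are a description. Bahcc1, the closest, went from 66.8 to 59.3 CPM in ESCs (log2 fold change -0.17, edgeR, adjusted p = 0.0572) and from 54.3 to 64.7 in EpiLCs (0.25, edgeR, adjusted p = 0.235). Ulk1, a kinase that starts autophagy, went from 262 to 235 CPM in ESCs (-0.16, edgeR, adjusted p = 0.0565) and from 41.2 to 50.1 in EpiLCs (0.28, edgeR, adjusted p = 0.237). Neither passed. Since likeness was computed over values that include the exposure contrast, these changes were in part fixed by the choice of genes. Of the 5 genes, Rims2 and Stk10 had overlapping groups in ESCs. The correlation of Axin2 with the other 6 genes in both tables ran from -0.56 (Tcf7l2) to 0.53 (Tcf7).

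Nkd1, an inhibitor that binds Dishevelled and is itself induced by the pathway, was near the lower end of the table in ESCs (ENSMUSG00000031661, chromosome 8 from 88521354 to 88594884). It had 1.74, 1.46 and 1.70 CPM in vehicle ESCs and 1.59, 1.94 and 1.68 with Δ9-THC, with 38 to 58 counts per library. In EpiLCs it had 6.11, 7.07 and 8.59 CPM with the vehicle and 8.22, 7.28 and 5.84 with Δ9-THC. The EpiLC libraries were all above the ESC libraries, and the exposure groups overlapped in both. The log2 fold change was 0.096 in ESCs (SE 0.13, edgeR, adjusted p = 0.734) and -0.026 in EpiLCs (SE 0.17, edgeR, adjusted p = 0.960). Its paralogue Nkd2, named after its values were seen, also had a higher level in vehicle EpiLCs, at 7.39 ± 0.492 CPM against 1.03 ± 0.193 in vehicle ESCs. Of the other feedback inhibitors named above, Znrf3, a ubiquitin ligase that removes Frizzled receptors, was lower in EpiLCs (22.4 ± 0.172 CPM in vehicle ESCs and 16.6 ± 2.21 in vehicle EpiLCs), and Notum had a row for ESCs only.

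**Figure D3:**
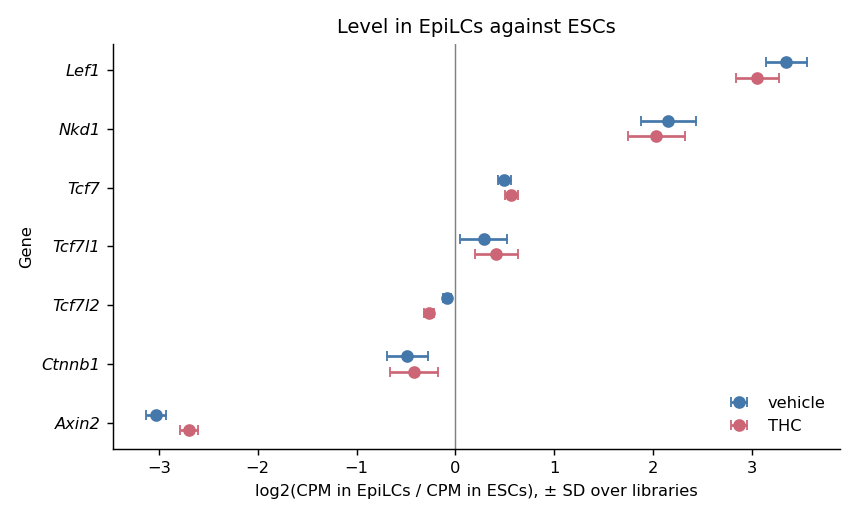
Log2 ratio of the mean CPM in EpiLCs to that in ESCs for the 7 genes with a row in both tables, for vehicle (blue) and Δ9-THC (red) cultures. Bars are the SD over the 3 libraries of each cell type. Lef1 (3.35 with vehicle) and Nkd1 (2.15) stand to the right, Axin2 (-3.03) to the left, and the other 4 between -0.49 and 0.50.

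The remaining 3 genes are transcription factor targets of the pathway, and they were measured in ESCs only. Cdx1, a caudal-type homeobox factor of axial patterning (ENSMUSG00000024619), had 57.2, 56.9 and 61.8 CPM with the vehicle and 58.4, 59.0 and 54.4 with Δ9-THC. The groups overlapped, and the log2 fold change was -0.033 (SE 0.049, edgeR, adjusted p = 0.701). Per length it stood second among the 10 genes, at 33.5 ± 1.56 CPM per kilobase (SD, n = 3), above 88.4% of the genes of the ESC table. Of the 694 genes with a row in the ESC table and none in the EpiLC table, Cdx1 had the highest level in vehicle ESCs, 58.6 CPM on average. The longest transcript of Cdx1 has a GC content of 62.1%, and with the GC and length offsets its value turned to 0.14 (edgeR, unadjusted p = 0.00545, adjusted p = 0.123).

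Sp5 (ENSMUSG00000075304, chromosome 2 from 70474923 to 70477729), a direct target in ESCs and embryos, had 12.5, 14.5 and 14.7 CPM with the vehicle and 14.1, 12.1 and 11.99 with Δ9-THC. The groups overlapped (log2 fold change -0.13, SE 0.091, edgeR, adjusted p = 0.393). With a GC content of 62.0%, it had a value of 0.051 with the offsets (edgeR, adjusted p = 0.801). It ranked 17th by level among the genes with a row in the ESC table only.

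T (ENSMUSG00000062327, chromosome 17 from 8434423 to 8442496), the marker of the primitive streak and early mesoderm, was at 1.95, 2.23 and 1.80 CPM with the vehicle and 2.22, 1.94 and 2.43 with Δ9-THC. These values rest on 51 to 64 counts per library, and the groups overlapped (log2 fold change 0.14, SE 0.13, edgeR, adjusted p = 0.590). Its level per length, 0.860 ± 0.0930 CPM per kilobase, was above 15.2% of the genes of the ESC table. Of the other streak and mesoderm markers, Gsc and Kdr had a row for ESCs only, at 5.02 and 0.618 CPM with the vehicle, Mixl1 and Tbx6 had one for EpiLCs only, at 1.87 and 1.01 CPM, and Eomes had 10.2 CPM in vehicle ESCs and 4.15 in vehicle EpiLCs.

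The order of the levels per length in vehicle ESCs was Ctnnb1, Cdx1, Tcf7, Tcf7l1, Axin2, Sp5, Tcf7l2, T, Lef1 and Nkd1. Only the last pair, Lef1 at 0.393 ± 0.0526 and Nkd1 at 0.358 ± 0.0328 CPM per kilobase, overlapped between libraries. Cdx1 and Tcf7 were near each other, with ranges of 32.5 to 35.3 and 30.7 to 32.3 CPM per kilobase. In vehicle EpiLCs the order was Ctnnb1, Tcf7, Tcf7l1, Lef1, Nkd1, Axin2 and Tcf7l2, with no overlap between neighbours. Axin2 thus stood above Lef1 and Nkd1 in ESCs and below both in EpiLCs, where it had 1.14 ± 0.0742 CPM per kilobase against 9.28 ± 0.176 in ESCs.

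Across the set, the exposure values of the 10 genes were small. In ESCs they ran from -0.16 to 0.17 on the log2 scale, 4 above and 6 below 0, with a median of -0.020 against 0.0041 over all genes. In EpiLCs the 7 values ran from -0.17 to 0.21, 3 above and 4 below 0, with a median of -0.010 against 0.0030. With edgeR, 0 of 10 genes passed in ESCs, where 6.91% of all genes did, and 0 of 7 in EpiLCs, where 0% did. DESeq2 called 0 of them as well. Before adjustment, p was under 0.05 for 3 of the 10 in ESCs, Axin2, Tcf7l1 and Tcf7l2, against 28.7% of all genes, and for 1 of the 7 in EpiLCs, Lef1, against 15.1%. The exposed libraries lay all on one side of the vehicle libraries for 4 of the 10 genes in ESCs (Tcf7l2 higher, and Axin2, Tcf7l1 and Ctnnb1 lower), against 32.6% of all genes, and for 2 of the 7 in EpiLCs (Axin2 higher and Lef1 lower), against 21.8%. These shares lie near those of all genes. The interaction values of the 6 genes other than Axin2 ran from -0.28 to 0.15 (edgeR, adjusted p = 0.456 to 0.902).

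The deposited counts had been adjusted for batch effects. In these counts the libraries of a cell type that share a replicate number were not independent, and the cause was not tested. For example, the CPM of Tcf7l1 in EpiLCs summed over the vehicle and exposed library of each number gave 167, 167 and 169, although the single values ran from 70.6 to 97.1. Ctnnb1 in EpiLCs gave sums of 667, 657 and 669 with single values of 277 to 380.7. In 16 of the 17 sets of values of the 10 genes, all 3 pairs lay on opposite sides of their group means, the exception being Tcf7l2 in ESCs. SDs and p-values therefore describe adjusted counts and not the variation of the cultures.

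The other genes of the pathway were described from 9 lists of ligands, receptors, inhibitors, signal transducers and targets, with 99 genes in all beside the 10. Of these, 63 had a row in ESCs and 74 in EpiLCs. In ESCs, 1 passed as higher and 2 as lower with Δ9-THC, against 6.91% of all genes. Before adjustment, 19 of the 63 had p under 0.05 (edgeR), against 28.7%. Of the values, 25 lay above and 38 below 0 (median -0.039), against 6697 and 6407 over all genes (median 0.0041). In EpiLCs 0 passed, against 0% of all genes, and 11 of the 74 had p under 0.05 before adjustment (edgeR), against 15.1%. There 48 values lay above and 26 below 0 (median 0.043), against 6953 and 6764 over all genes (median 0.0030). Over 13696 genes of EpiLCs the effect of exposure was higher the longer the longest transcript (Spearman's rho of 0.369, a description). The part of this trend in these counts was not tested. The groups did not overlap for 23 of the 63 in ESCs, against 32.6% of all genes, and for 12 of the 74 in EpiLCs, against 21.8%.

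Among the receptors, Fzd3, which encodes a Frizzled receptor, was higher with Δ9-THC in ESCs, at 9.38, 8.90 and 8.83 CPM with the vehicle and 10.3, 10.9 and 11.1 exposed (log2 fold change 0.25, SE 0.056, edgeR, adjusted p = 0.0490). Among the inhibitors, Dkk3, a secreted protein of the Dickkopf family, was lower in ESCs, at 8.59, 8.39 and 8.69 CPM against 6.74, 6.93 and 6.71 (log2 fold change -0.33, SE 0.053, edgeR, adjusted p = 0.0303). Notum, the secreted enzyme that removes the lipid from Wnt proteins and a target of the pathway, was lower as well, at 18.9, 20.2 and 19.3 CPM against 15.2, 14.2 and 15.01 (log2 fold change -0.40, SE 0.050, edgeR, adjusted p = 0.0283). In all 3 genes the groups were apart, as in 32.6% of all genes in ESCs. The 3 were chosen for passing the test on these same values, so this adds no separate support. All 3 calls were lost with the GC and length offsets, at values of 0.11 (edgeR, adjusted p = 0.396), -0.31 (edgeR, adjusted p = 0.0844) and -0.26 (edgeR, adjusted p = 0.107), and with any single library left out. With the replicate number as a block the values hardly moved, and all 3 calls were lost (edgeR, adjusted p = 0.486 for Fzd3, 0.430 for Dkk3 and 0.414 for Notum). DESeq2 called Notum (adjusted p = 0.00390), but neither Fzd3 (adjusted p = 0.196) nor Dkk3 (adjusted p = 0.106). Notum had no row in the EpiLC table, and Fzd3 (0.32) and Dkk3 (0.38) did not pass in EpiLCs (edgeR, adjusted p = 0.343 and 0.528).

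Between the cell types, the level of several of these genes differed as much as that of the effectors and targets. Of 19 Wnt ligands, 3 had a row in ESCs and 8 in EpiLCs. Their summed level was 4.10 to 4.56 CPM per vehicle ESC library and 18.03 to 21.7 per vehicle EpiLC library. Of the 2 with rows in both, Wnt5b, the higher per length, was lower in EpiLCs (2.50 ± 0.151 and 1.66 ± 0.288 CPM). The other, Wnt11, had nearly equal levels (1.01 ± 0.158 and 0.962 ± 0.179 CPM). Of the ligands with a row for EpiLCs only, Wnt8a had the highest level, 8.82 ± 0.614 CPM in vehicle EpiLCs. Wnt11 and Wnt8a were named after their values were seen. Porcn, the acyltransferase that lipidates Wnt proteins, was lower in EpiLCs (20.4 ± 1.87 against 9.36 ± 1.06 CPM). Of the 12 receptors, 7 were higher and 5 lower. Fzd2 had the highest ratio of EpiLCs to ESCs (2.85 ± 0.176 CPM in ESCs and 32.7 ± 1.06 in EpiLCs) and Fzd10 the lowest (45.1 ± 2.72 and 5.89 ± 1.06), and Fzd7, the most abundant per length, had 45.3 ± 4.26 and 171 ± 9.403. Lgr4, a receptor of R-spondins, had 46.2 ± 3.57 CPM in ESCs and 161 ± 16.5 in EpiLCs. Its 3 vehicle libraries of each cell type did not overlap with those of the other.

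The secreted inhibitors differed in both directions. Sfrp1, which binds Wnt proteins, was the most abundant of them per length and was lower in EpiLCs (208 ± 9.30 against 34.9 ± 3.05 CPM), while its relative Sfrp2 was higher (2.904 ± 0.341 against 20.2 ± 0.859). In the cell, the genes of the Dishevelled list had ratios nearer to 1, with Dvl1 the highest (23.6 ± 0.608 CPM in ESCs and 39.8 ± 10.2 in EpiLCs) and Dvl3 the lowest (49.3 ± 1.24 and 33.3 ± 1.84). The kinase gene Csnk1g2 had the highest level per length of that list (115 ± 3.59 and 159.6 ± 5.03 CPM). The genes listed for the destruction complex and its turnover were lower in EpiLCs for 9 of 10, against 6207 of 12410 over all genes. Their median log2 ratio was -0.44 against -0.00014 over all genes. They included the tankyrase gene Tnks, with the lowest ratio (146 ± 9.46 CPM in ESCs and 94.9 ± 15.2 in EpiLCs), and Tnks2, with the highest level per length (459.5 ± 23.8 and 412 ± 48.0), and Amer1 was the exception (32.1 ± 3.31 and 38.9 ± 5.07).

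Of the nuclear cofactors, 5 were higher and 7 lower in EpiLCs. Tle5, a short Groucho-family protein, had the lowest ratio (179 ± 9.59 CPM in ESCs and 56.6 ± 10.5 in EpiLCs), Ctbp2, a co-repressor, the highest (169.8 ± 2.19 and 278 ± 11.6), and the deacetylase gene Hdac1 had the highest level per length (374 ± 15.4 and 270.0 ± 17.2). Of the other targets with rows in both tables, 4 were higher and 4 lower in EpiLCs. Myc, the proliferation factor, had the highest ratio, with 6.65 ± 1.10 CPM in ESCs and 62.1 ± 5.70 in EpiLCs, and Tnfrsf19, a receptor of the TNF family, the lowest, with 27.1 ± 1.43 and 10.2 ± 0.936. Ccnd1, which encodes cyclin D1, was the most abundant per length (69.6 ± 3.63 and 94.6 ± 7.78). The targets and the inhibitors therefore both held genes higher in EpiLCs and genes lower there.

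**Figure D4:**
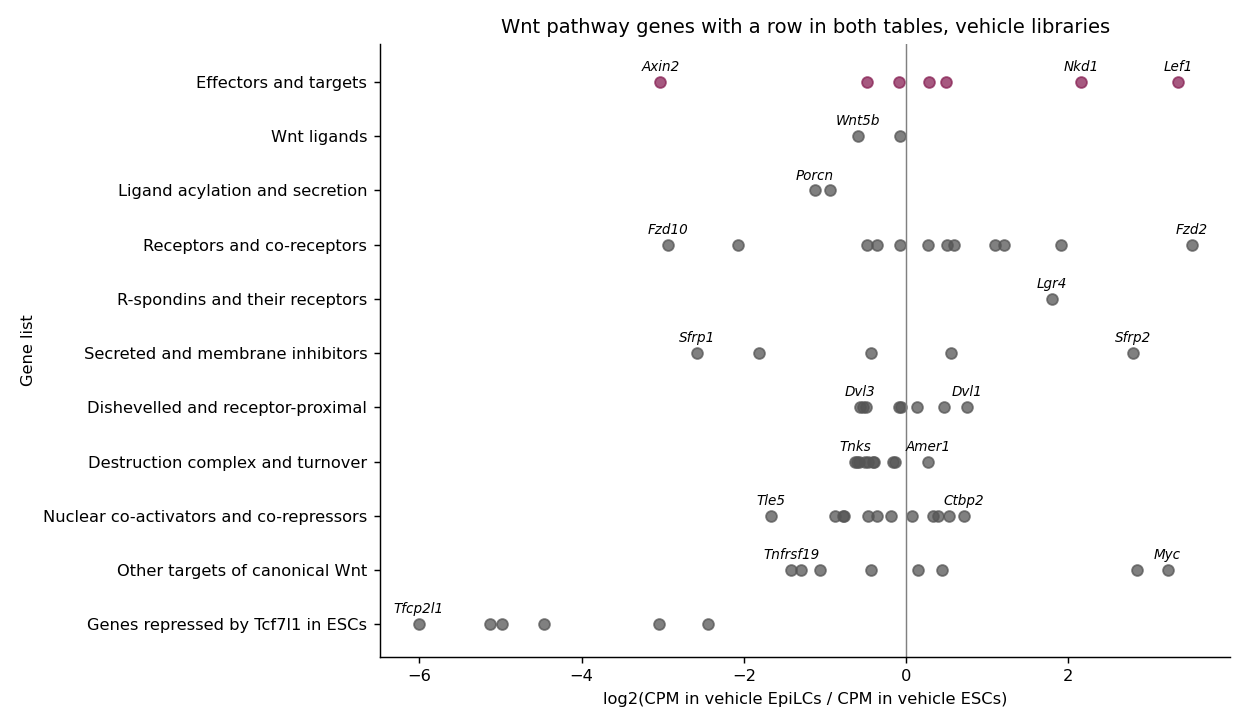
Log2 ratio of the mean CPM in vehicle EpiLCs to that in vehicle ESCs for the genes of each pathway list with a row in both tables, 1 point per gene. Labels name the gene farthest above 0 and the gene farthest below 0 in each list, where there is one, and Nkd1 among the effectors and targets. The list of the destruction complex and its turnover sits below 0 for 9 of 10 genes, and the genes repressed by Tcf7l1 for 6 of 6. Receptors, inhibitors and targets lie on both sides.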

How the data were processed

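Poly(A) RNA of mouse ESCs and EpiLCs was sequenced in 12 libraries, made with either of 2 kits that are not assigned to libraries in the sources used here. The authors checked reads with FastQC, aligned them with STAR (at most 5 mismatches, single hits only), counted them over exons with HTSeq without strand, removed genes with low counts and adjusted the counts with ComBat-seq. The batches are not named in the sources used here, and the genome is given both as mm10 and as GRCm39. The deposited tables, 1 per cell type, hold these adjusted whole-number counts, not scaled for depth, and 0 columns were left over after libraries were assigned by their labels. PGCLC libraries were not analysed here.

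The depth of 23427551 to 32096698 adjusted counts per library limits precision by counting error for genes with few counts, such as Nkd1 and T, and intervals from counting were not computed since batch adjustment changed the counts. Genes were tested with edgeR 4.0.16 (quasi-likelihood, TMM, Benjamini-Hochberg, threshold 0.05) in R 4.3.3, within each cell type and as an interaction over the 12 libraries. Every gene of both tables had a total of more than 10 counts, the lowest over 6 libraries being 82 in ESCs and 80 in EpiLCs. Alternatives were DESeq2 1.42.0, RLE size factors, GC and length offsets (natural splines with 5 degrees of freedom), a block for the replicate number, no filter or a minimum of 10 counts in each library, 1 fit of the 12 libraries together, other scalings between cell types, and leaving out single libraries. The fits were tested on simulated counts, drawn independently for each library. The opposite deviations of same-numbered libraries were not part of the simulation, so it does not cover their bearing on the p-values. Gene positions, lengths and GC content came from GENCODE M21 on GRCm38, and promoters from RefSeq on GRCm38.p6. GC content and the length in the offsets were those of the longest annotated transcript of a gene.

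The members, lists and tests were chosen with earlier results of these data known. Besides the 10 genes, the text names list genes that passed the test, the list gene with the highest mean CPM per kilobase, the largest rise and fall between vehicle ESCs and vehicle EpiLCs, and the 5 genes most like Axin2 among those with a mean of at least 5 CPM in each table.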

Additional observations from a re-analysis of the deposited data

Results flagged for a closer look

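Axin2 was flagged under a rule for an effect of Δ9-THC that differs between groups. Its exposed libraries lay below all vehicle libraries in ESCs and above all of them in EpiLCs. Groups were apart in either direction for 32.6% of all genes in ESCs and 21.8% in EpiLCs. The share of genes with opposite directions in the cell types was not counted. Bahcc1, Ulk1 and Plekha7, chosen for likeness to Axin2, had the same pattern. The effect of Δ9-THC on Axin2 in EpiLCs minus that in ESCs was 0.35 on the log2 scale, and the interaction test did not pass after adjustment (edgeR, unadjusted p = 0.00275, adjusted p = 0.137). The difference stayed above 0 in the 17 alternatives tried, from 0.27 with GC and length offsets (edgeR, adjusted p = 0.206) to 0.39 without EpiLC Δ9-THC replicate 3 (edgeR, adjusted p = 0.139), and it passed in none of them. With the replicate number as a block, the adjusted p of edgeR was 0.999.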

How the results depend on the processing

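None of the 10 genes passed in either cell type or in the interaction under any alternative. The difference in Axin2, Lef1, Nkd1, Tcf7, Tcf7l1, Tcf7l2 and Ctnnb1 between cell types kept its direction under 3 other scalings, which moved the median of all genes by less than 0.1 on the log2 scale, and without each library. Counts over all genes moved more. In ESCs, where 906 genes passed, 31 passed in the fit of all 12 libraries, 7 with GC and length offsets, and 0 to 1 without a single library. In EpiLCs, where 0 passed with edgeR (2069 with p under 0.05 before adjustment), 87 passed with DESeq2 and 411 in the fit of all 12 libraries. In the interaction, where 4 passed, 21 passed with the offsets, 133 with DESeq2 and 0 with any single library left out.

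In fits with a replicate block, 5 genes passed in ESCs, 3 with the block and the offsets together, and 0 in the interaction. The replicate numbers were not used as pairs in the main fits, and whether they were the batches of the authors' adjustment is not given in the sources used here. The deviations of same-numbered vehicle and exposed libraries from their group means correlated at -0.987 to -0.977 across genes, and those of different numbers at 0.22 to 0.70, so same-numbered libraries cannot be taken as independent. The main fits took all libraries as independent, so their p-values may be too small.

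Several values changed sign. With the offsets, Tcf7 (from -0.023 to 0.018), Sp5 (from -0.13 to 0.051) and Cdx1 (from -0.033 to 0.14) in ESCs and Tcf7l1 (0.043) in EpiLCs turned positive, with the same rounded values when the block was added, and the interaction of Fzd3 was -0.014. Leaving out single libraries gave -0.055 to 0.0031 for Cdx1 and -0.00057 to 0.15 for Nkd1 in ESCs. In EpiLCs it gave -0.16 to 0.082 for Tcf7l1, -0.049 to 0.0070 for Tcf7l2, -0.044 to 0.18 for Ctnnb1 and -0.16 to 0.11 for Nkd1, with the signs turned without vehicle or Δ9-THC replicate 3 for Tcf7l1, Ctnnb1 and Nkd1, without Δ9-THC replicate 1 for Ctnnb1 and without vehicle replicate 1 for Tcf7l2. In the interaction it gave -0.0026 to 0.21 for Ctnnb1 and -0.22 to 0.029 for Nkd1. The cause of these changes was not tested. Fzd3 and Dkk3 in ESCs failed to pass in 11 of 14 alternatives and Notum in 9 of 13. Low counts limit Nkd1 and T in ESCs, at 38 to 64 counts per library.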
